A study of Mus musculus with 4 samples.

Results

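The vacuolar proton pump genes described here are 10 genes, Atp6v0a1, Atp6v0b, Atp6v0c, Atp6v0d1, Atp6v0d2, Atp6v1a, Atp6v1b2, Atp6v1h, Atp6ap1 and Atp6ap2, taken by symbol from a table of raw counts. All 10 were found among the 16360 genes of the table. They were compared between macrophages of mice homozygous for R213G, an amino acid substitution in extracellular superoxide dismutase (EC-SOD, the product of Sod3), and of WT mice. Mice of both genotypes were male, 8 to 10 weeks old, of the strain given as CD57/Bl6, and all had received 100 µl of bleomycin at 1 U/ml through the trachea; no group without bleomycin is part of the comparison. On day 7, recruited alveolar macrophages were sorted by high CD64 and CD11b with low Siglec-F, and polyA RNA of 2 R213G and 2 WT samples was sequenced as directional libraries. The labels do not tie each library to a separate mouse, so the p-values cover only the spread between these libraries, which may be technical. In sorted bulk RNA, fewer cells of a type and less RNA per cell cannot be told apart.

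The pump is a rotary enzyme of lysosomes, phagosomes and endosomes. Its cytosolic V1 sector hydrolyses ATP, and the rotation it drives moves protons through the membrane-bound V0 sector into the lumen. Macrophages depend on this acid for digesting engulfed material, and the assembled pump also serves as a docking site for nutrient sensing by mTORC1 on the lysosome. Many of its genes carry binding sites of the MiT/TFE transcription factors, which raise lysosomal genes together.

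The R213G libraries held 33488569 and 35176210 counts in total, against 33573116 and 34111951 for WT. R213G replicate 1 stood apart, with 13584 genes detected against 15047 in R213G replicate 2, and 14598 and 15194 in WT replicates 1 and 2. It also held the most of Gm42418, a non-coding transcript, at 1689 CPM (counts scaled to library size), against 512.7 in R213G replicate 2 and 671.2 and 702.1 in WT. Sod3, whose product carries the substitution, had counts of 4 and 47 in R213G, against 47 and 96 in WT, and its level does not check the labels because the variant changes an amino acid. The sort gate and pan-macrophage markers summed to 4991 to 5492 CPM in R213G and 5157 to 5713 CPM in WT, with Cd68 the highest and Fcgr1 (CD64) the lowest. Of the marker lists of other cells, resident alveolar macrophage genes summed to 413 to 416.5 CPM in R213G and 325 to 685 CPM in WT (highest Chil3, lowest Fabp1). Chil3 alone made up much of these sums, at 197.8 and 177.1 CPM in R213G and 133.9 and 503.5 CPM in WT. Of the 12 alveolar genes, 7 fold changes were positive and 5 negative. Neutrophil genes summed to 136.7 to 158.6 CPM in R213G, all below the 179.9 to 186.7 CPM in WT (Mmp8, S100a9). Mmp8 and Csf3r carried this sum, with Csf3r at 45.28 and 55.35 CPM in R213G and 74.51 and 68.05 CPM in WT. S100a8 did not follow it, at 19.74 and 12.21 CPM in R213G and 11.08 and 13.17 CPM in WT. S100a9 had 31 counts in R213G replicate 1 and 0 in every other library. Dendritic genes summed to 44.09 to 136.5 CPM in R213G and 39.52 to 153 CPM in WT (Ccr7, Xcr1), and epithelial genes to 104.5 to 221.3 CPM in R213G and 98.5 to 166.2 CPM in WT (Cdh1, Sftpc). The T and NK, B cell, endothelial and fibroblast lists reached at most 23.93 CPM in any library (highest genes Cd3e, Ighm, Kdr and Col1a1, lowest Cd3d, Ms4a1, Cdh5 and Col1a1). Of ionocyte markers, a pump-rich airway cell, Ascl3 alone was in the table, with 0 CPM in R213G and 0.2914 to 0.3934 CPM in WT.

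None of the 10 pump genes differed between R213G and WT macrophages beyond the spread of the libraries. With edgeR's quasi-likelihood test on all 13575 genes that passed the filter on low counts, all 10 of them among these, 0 of the 10 passed at a Benjamini-Hochberg adjusted p under 0.05, beside 0% of all genes tested. At an unadjusted p under 0.05 there were again 0 of the 10, beside 2.22% of all genes tested (0.936% higher and 1.29% lower in R213G). DESeq2 and limma voom also called 0 of the 10. Of the whole table edgeR and limma voom called 0 genes, with 302 and 201 at an unadjusted p under 0.05, and DESeq2 called 1, Clrn2 (0.00619%), with 340. Among the pump genes 4 fold changes were positive and 6 negative, from -0.11 for Atp6v0c to 0.05 for Atp6v1b2 and Atp6ap1 on the log2 scale (R213G minus WT), with a median of -0.02 beside -0.01 over all genes tested. The signs of these small values are not stable: leaving out 1 library reversed 8 of the 10, and Atp6v0d1 and Atp6v0d2 also changed sign under another scaling or test.

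The 95% intervals of the fold changes ran from 0.767 for Atp6v0a1 at the low end to 1.34 for Atp6v1h at the high end. For Atp6v0d1 the interval was 0.838 to 1.18, and for Atp6v0d2 it was 0.772 to 1.32. These are the sizes of change that the data are compatible with, not a limit of detection, and the missed threshold does not show that the genotypes were alike.

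**Figure D1:**
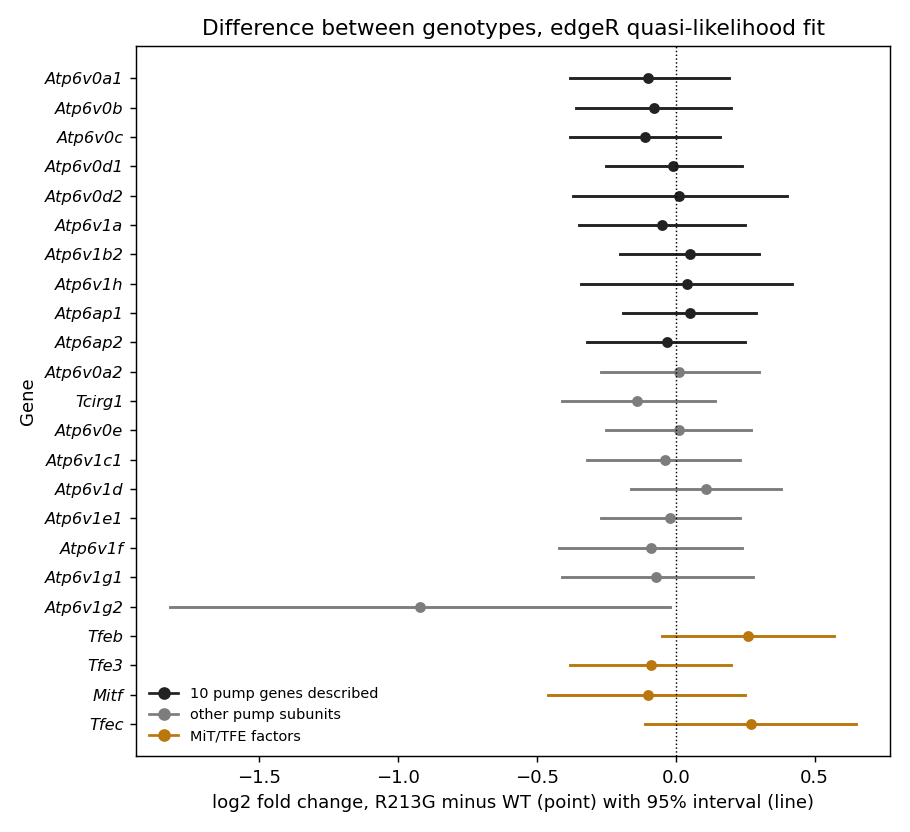
Log2 fold change (R213G minus WT, point) and its 95% interval (line) for the 10 pump genes, 9 other pump subunits and the 4 MiT/TFE factors, from the edgeR fit. All 10 pump gene intervals cross 0, from -0.38 at the lowest end for Atp6v0a1 and Atp6v0c to 0.42 at the highest end for Atp6v1h; among the genes drawn the interval of Atp6v1g2, at -1.82 to -0.02, lies wholly below 0, and its adjusted p did not pass.

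The V0 sector carries the protons across the membrane. Atp6v0c encodes the c proteolipid, the main building block of the rotating ring, on chromosome 17 from 24163866 to 24169702 (GRCm38, minus strand). It was at 229.6 and 263.7 CPM in R213G, against 265.6 and 267.3 CPM in WT, so both R213G libraries lay below both WT libraries. Its log2 fold change was -0.11 ± 0.12 (SE; edgeR adjusted p = 0.9996), and 1 of its R213G libraries came within a few CPM of WT. Atp6v0c-ps1, a processed pseudogene in the table, shares an exact stretch of 90 bases with Atp6v0c and took 0.1724 to 0.3222 CPM, so reads that fit both genes are a small part unless the counting dropped them. Atp6v0b encodes c″, the second proteolipid of the ring (chromosome 4, 117884326 to 117887333, minus strand). It was at 212.4 and 250.3 CPM in R213G, against 238.6 and 250.6 CPM in WT, with overlapping libraries. Of the exon bases of Atp6v0b, 11.8% overlap the antisense gene Gm12841, and the strand setting of the counting is not given in the sources used here.

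Atp6v0a1, on chromosome 11 from 101009452 to 101063719 (plus strand), encodes a1, one of the interchangeable forms of the a subunit that lines the proton path. It was at 367.8 and 441.1 CPM in R213G and at 408.5 and 455.8 CPM in WT, a log2 fold change of -0.10 ± 0.13. The 2 libraries of each genotype differed more than the genotypes did. Tcirg1, which encodes the a3 form known from the acid-secreting border of osteoclasts and from lysosomes, stood at 562.9 and 628.9 CPM in R213G and 608.0 and 700.9 CPM in WT (-0.14 ± 0.12). Atp6v0a2, the form known from the Golgi and endosomes, was at 104.2 and 101.9 CPM in R213G and 99.81 and 104.4 CPM in WT (0.01 ± 0.13). Neither passed the test.

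The d subunit joins the rotor of V0 to the central stalk of V1, and it has a ubiquitous form, d1, and a form of narrower expression, d2, known from osteoclasts and other myeloid cells. Atp6v0d1 (chromosome 8, 105524465 to 105566047, minus strand) was at 285.1 and 287.3 CPM in R213G and 293.4 and 282.3 CPM in WT, the steadiest of the 10 in R213G (286 ± 1.55 against 288 ± 7.86 CPM, SD, n = 2 each). Atp6v0d2 (chromosome 4, 19876841 to 19922605, minus strand) was at 292.6 and 440.7 CPM in R213G and 355.1 and 371.2 CPM in WT. The R213G libraries were the lowest and the highest of the 4, with both WT libraries between them. Its means were nearly equal, 367 ± 105 CPM in R213G and 363 ± 11.4 CPM in WT (SD, n = 2 each; log2 fold change 0.01 ± 0.17, edgeR adjusted p = 0.9996). Without R213G replicate 1 the fold change was 0.28, and without R213G replicate 2 it was -0.31, so the value rests on which R213G library is counted.

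The pair can be told apart by sequence, which is why a stretch of each coding sequence is given here. The coding parts, 1053 bases in Atp6v0d1 and 1050 in Atp6v0d2, were 65.9% identical over 1050 aligned bases (GENCODE vM21 transcripts). The longest exact stretch that their transcripts share was 17 bases. It lies within the following 90 bases (from coding base 124 of each, 5′ to 3′), where capitals mark the 28 positions at which the genes differ.
Atp6v0d1: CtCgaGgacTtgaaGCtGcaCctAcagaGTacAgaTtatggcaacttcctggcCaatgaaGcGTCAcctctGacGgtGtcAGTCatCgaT
Atp6v0d2: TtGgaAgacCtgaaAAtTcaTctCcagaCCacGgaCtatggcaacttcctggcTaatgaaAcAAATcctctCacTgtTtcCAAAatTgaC

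Because both d genes are read in the same library, their shares do not depend on the scaling of libraries. Of the length-adjusted reads of the d subunit (reads per kilobase of exon), Atp6v0d2 took 40.4% and 50.3% in R213G, against 44.4% and 46.5% in WT. The R213G values again lay on either side of both WT values. The means were 45.4% ± 7.0 and 45.4% ± 1.5 (SD, n = 2 each), and the exact two-sided permutation test gave p = 1, where 0.33 is the smallest that 2 libraries against 2 allow. Before adjustment for length, Atp6v0d2 took 50.6% and 60.5% of the d reads in R213G and 54.8% and 56.8% in WT, with 95% Wilson intervals of at most 0.7 points to either side. These cover counting error only, and the libraries differed by far more than that.

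For the a subunit the make-up was steadier. Tcirg1 took 63.1% and 62.4% of its length-adjusted reads in R213G and 63.1% and 64.2% in WT. Atp6v0a1 took 28.9% and 30.7% in R213G and 29.8% and 29.3% in WT, and Atp6v0a2 7.99% and 6.92% in R213G, against 7.09% and 6.54% in WT. The exact permutation p was 0.33 for Tcirg1, 1 for Atp6v0a1 and 0.667 for Atp6v0a2. Since 0.33 is the smallest p this design allows, the test could not have passed the threshold and says nothing for or against a difference. The 95% Wilson intervals of the read shares were at most 0.52 points to either side for these genes, for counting error only.

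**Figure D2:**
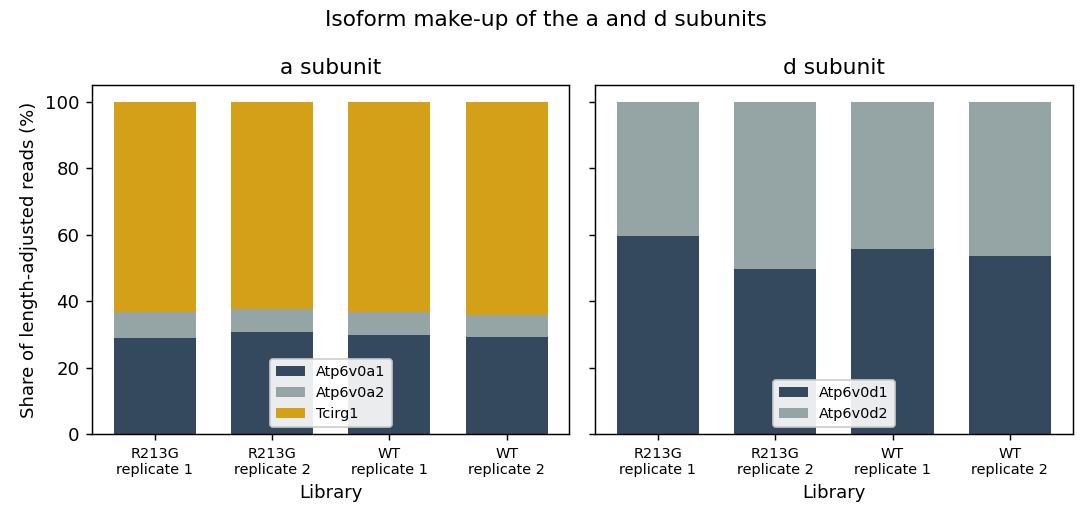
Share (%) of length-adjusted reads taken by each isoform gene of the a subunit (left) and the d subunit (right) in each of the 4 libraries, 2 R213G and then 2 WT. Tcirg1 took between 62.4% and 64.2% of the a subunit in all 4, while Atp6v0d2 ranged between 40.4% and 50.3% of the d subunit, both ends in R213G libraries.

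The V1 sector holds the catalytic ring. Atp6v1a (chromosome 16, 44085402 to 44139705, minus strand) encodes A, the subunit that binds and hydrolyses ATP, and was at 307.3 and 386.7 CPM in R213G and 366.7 and 352.8 CPM in WT (log2 fold change -0.05 ± 0.13). Atp6v1b2 (chromosome 8, 69088646 to 69113711, plus strand) encodes B2, which alternates with A in the ring, and was at 510.8 and 559.6 CPM in R213G and 511.7 and 522.9 CPM in WT (0.05 ± 0.11). For both genes the R213G libraries enclosed the WT libraries. Atp6v1h (chromosome 1, 5070018 to 5162529, plus strand) encodes H, which bridges the sectors and holds back ATP hydrolysis when V1 is detached. It was the least abundant, at 74.46 and 102.3 CPM in R213G and 81.32 and 90.28 CPM in WT (0.04 ± 0.17), again with WT between the R213G libraries. The ratio of Atp6v1a to Atp6v1b2 per length was 0.528 and 0.607 in R213G, against 0.629 and 0.592 in WT libraries (exact permutation p = 0.667).

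The accessory proteins Ac45 and the prorenin receptor help to assemble V0 and to sort the pump. Atp6ap1, which encodes Ac45 on the X chromosome from 74297097 to 74304721 (plus strand), was at 591.3 and 624.7 CPM in R213G, against 586.7 and 590.9 CPM in WT. Both R213G libraries were above both WT libraries, the lower of them by less than 1 CPM. The log2 fold change was 0.05 ± 0.11. Atp6ap2, which encodes the prorenin receptor (X chromosome, 12587801 to 12617049, plus strand), was at 175.2 and 207.4 CPM in R213G and 200.6 and 191.3 CPM in WT (-0.03 ± 0.13), with overlapping libraries. Atp6v0c and Atp6ap1 were thus the 2 of 10 genes whose genotypes did not overlap, in opposite directions, beside 28.9% of all genes tested (13.7% with R213G higher and 15.2% with R213G lower), and the same 2 were found under each of the other 3 scalings.

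By their medians, the 10 genes differed more between the R213G libraries (0.24 on the log2 scale) than between genotypes (0.05, without sign), as did all genes tested (0.32 against 0.17) and tested genes with a mean of at least 50 CPM (0.17 against 0.08), all without sign. A gap between 2 single libraries tends to exceed a difference between means of 2 libraries, so this order would also arise without any genotype effect. All 10 were higher in R213G replicate 2 than in R213G replicate 1, where 52.2% of all genes tested were, though with scaling by total counts alone Atp6v0d1 went the other way and 9 remained. Between the WT libraries, 7 of the 10 were higher in replicate 2, where 50.7% of all genes were. The gap between WT libraries, without its sign, had a median of 0.06 over the 10 genes. Among all tested genes with a mean of at least 50 CPM, a level closer to that of these genes, the corresponding medians without sign were 0.17 in R213G and 0.12 in WT. For 9 of the 10 genes the R213G gap was the wider one, beside 59% of all genes tested.

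The genes took unequal parts in this gap. Atp6v0d2 had the widest, 1.51-fold between the R213G libraries and 1.05-fold between the WT libraries. Atp6v1h followed at 1.37-fold and Atp6v1a at 1.26-fold in R213G. At the other end, Atp6v0d1 differed by 1.01-fold, Atp6ap1 by 1.06-fold and Atp6v1b2 by 1.10-fold between the R213G libraries. The 10 genes summed to 3047 and 3564 CPM in R213G and 3308 and 3375 CPM in WT. The 11 other subunit genes in the table summed to 1506 and 1614 CPM in R213G and 1597 and 1655 CPM in WT. Of the 10 of these that were tested, 7 were higher in R213G replicate 2 than in R213G replicate 1. The library in which the 10 genes summed lowest, R213G replicate 1, is also the one in which Gm42418 was highest and fewest genes were detected. Marker lists differed between the same libraries. The sort gate and pan-macrophage genes, like the pump genes, summed lower in R213G replicate 1 (4991 CPM, against 5492 CPM in R213G replicate 2), with 5 of 6 higher in replicate 2. Cd68 was at 1892 and 2328 CPM and Fcgr1 nearly level at 249.9 and 250.5 CPM, while Itgam (CD11b) went the other way, at 859 and 721.2 CPM. In WT the same list summed to 5713 CPM in replicate 1 and 5157 CPM in replicate 2, with 0 of 6 higher in replicate 2. Resident alveolar genes had nearly level sums in R213G, 416.5 and 413 CPM, but single genes moved both ways. Marco was at 7.938 and 23.62 CPM and Plet1 at 105.4 and 73.2 CPM, and 7 of 12 were higher in replicate 2. Dendritic genes summed to 136.5 CPM in R213G replicate 1 and 44.09 CPM in R213G replicate 2, though Xcr1 and Clec9a were at 0 in replicate 1. The epithelial sum of 221.3 CPM in R213G replicate 1 and 104.5 CPM in R213G replicate 2 was carried by Cdh1 (186.8 and 84.58 CPM) and Epcam (32.25 and 14.80 CPM). The other 4 epithelial markers were lower in replicate 1, with Sftpb at 0.4101 and 2.184 CPM, Scgb1a1 at 1.875 and 2.5 CPM, and Sftpc and Foxj1 at 0 in replicate 1. The dendritic and epithelial sums were also lower in replicate 2 of WT. There the dendritic sum was 153 CPM in replicate 1 and 39.52 CPM in replicate 2, and the epithelial sum 166.2 and 98.5 CPM. Cdh1 (149.8 and 86.78 CPM) and Epcam (14.86 and 9.588 CPM) again carried the epithelial sum. Sftpb, Scgb1a1, Sftpc and the dendritic gene Xcr1 were higher in WT replicate 2, at 0.9908 CPM at most, and Foxj1 was lower. The sum of the 10 pump genes in the same WT libraries was 3308 and 3375 CPM. The part of the marker differences in the pump gap was not tested.

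**Figure D3:**
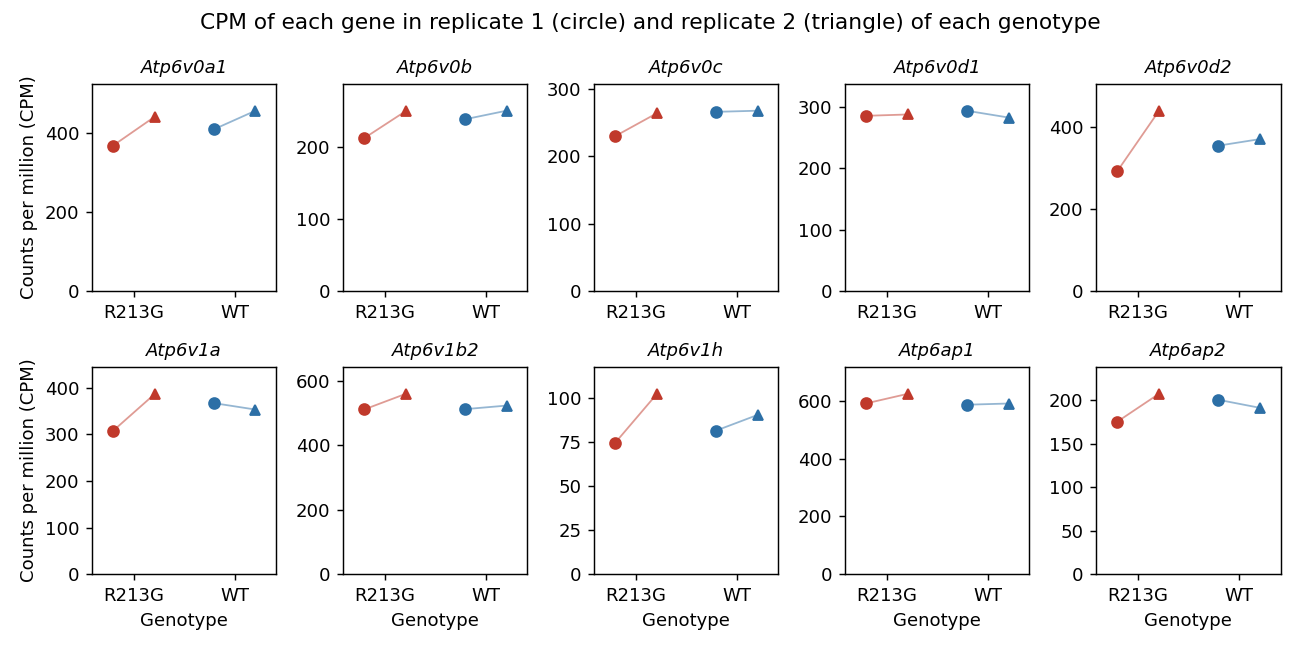
CPM of each of the 10 genes in the R213G libraries (red, left) and the WT libraries (blue, right), replicate 1 as a circle and replicate 2 as a triangle, with a line joining the libraries of 1 genotype; each panel has its own axis from 0. The line is steepest for Atp6v0d2 in R213G (292.6 and 440.7 CPM) and close to flat for Atp6v0d1 (285.1 and 287.3 CPM).

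The pump genes were abundant, 9 of the 10 lying above at least 95.7% of the 15858 genes with an exon length. Levels of different genes were set side by side only as TPM, which divides reads by exon length and scales each library to the same total. Atp6ap1 was highest, at 652.4 and 680.0 TPM in R213G and 630.9 and 658.0 TPM in WT, above 99% of the genes with a length. Atp6v0d1 followed with a mean of 531 TPM over the 4 libraries, then Atp6v0d2 with 445, Atp6v0b with 385, Atp6v1b2 with 329, Atp6v0c with 251, Atp6ap2 with 245, Atp6v0a1 with 212 and Atp6v1a with 194 TPM. Atp6v1h was far below the others at 25.51 and 34.57 TPM in R213G and 27.15 and 31.22 TPM in WT, above 70.8% of the genes with a length. For 3 neighbouring pairs in this order the libraries were fully apart, namely Atp6ap1 above Atp6v0d1, Atp6v1b2 above Atp6v0c and Atp6v1a above Atp6v1h. The other neighbours overlapped when values were set across libraries. Ranked within each library, Atp6v0d2 passed Atp6v0d1 and Atp6ap2 passed Atp6v0c, both in R213G replicate 2 alone. The remaining genes kept their rank in all 4 libraries. With the longest transcript in place of all exon bases, Atp6v0b moved to rank 2 and Atp6v1b2 to rank 3, while Atp6ap1 stayed first and Atp6v1h last.

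**Figure D4:**
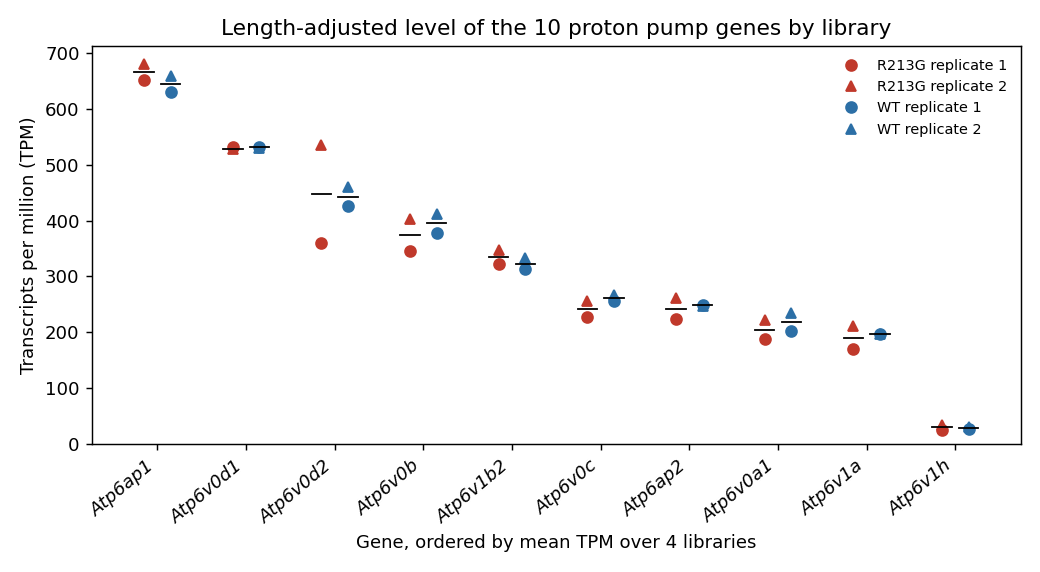
TPM of the 10 genes in each library, ordered by the mean over 4 libraries, with R213G (red) left of WT (blue) and a black bar at each genotype's mean of 2 libraries. Atp6ap1 lies between 630.9 and 680.0 TPM and Atp6v1h between 25.51 and 34.57 TPM, and Atp6v0d2 has the widest spread, 359.7 to 534.6 TPM, both in R213G.

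The genes nearest to Atp6v0d2 in pattern were taken by the root mean square distance of centred log2 CPM over the 4 libraries, among 9689 other genes with a mean of at least 5 CPM. They were Impad1 (distance 0.0147), Nup205 (0.019), Timp2 (0.0247), Commd10 (0.025) and Trim35 (0.0265). Timp2, an inhibitor of matrix metalloproteinases, was at 673.5 and 998.3 CPM in R213G and 841.6 and 868.8 CPM in WT. With 4 libraries such likeness is common, and 337 genes lay within 0.1 of Atp6v0d2. Of the pump genes Atp6v1h was the nearest, at 0.0599, and Atp6v0d1 the farthest, at 0.209.

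The remaining subunits of the pump were read in the same fit. Of 16 other subunit genes 11 were in the table and 10 were tested, and 0 were called higher and 0 lower, with 3 positive and 7 negative fold changes and a median of -0.05. Atp6v1g2, a form of the G stalk subunit known from neurons, was at 3.984 and 4.167 CPM in R213G and 7.566 and 7.868 CPM in WT, with no overlap (log2 fold change -0.92 ± 0.40, unadjusted p = 0.0462 and adjusted p = 0.9996 by edgeR). It took 2.85% and 2.63% of the length-adjusted G reads in R213G, against 4.41% and 5.31% in WT, the rest being Atp6v1g1 (exact permutation p = 0.33). The 95% Wilson intervals of the G read shares were at most 1.2 points to either side, and 5.74% of the exon bases of Atp6v1g2 overlap Nfkbil1 on the other strand. Atp6v1d, a subunit of the central stalk, was at 145.9 and 141.1 CPM in R213G and 137.9 and 128.7 CPM in WT (0.11 ± 0.12). Of the e subunit, Atp6v0e was at 173.2 and 166.9 CPM in R213G and 168.3 and 169.7 CPM in WT, while Atp6v0e2 had counts of 57 and 0 in R213G, against 0 and 5 in WT, and was not tested. Rnasek, which encodes the f subunit, had at most 0.6411 CPM, and 67.7% of its exon bases are shared with Gm21988 on the same strand, so its count is uncertain.

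Genes that build, reattach or dock the pump gave 0 calls in either direction. Of 3 assembly factors of the endoplasmic reticulum, Vma21 stood at a log2 fold change of 0.26 ± 0.23 and Ccdc115 at -0.08 ± 0.17, and the list's median was 0.01. Of 7 tested genes for reassembly of V1 with V0 and of the TLDc proteins, Tldc1 was at 14.62 and 14.57 CPM in R213G and 10.11 and 10.23 CPM in WT (0.52 ± 0.28, unadjusted p = 0.0962, edgeR), and Wdr7, a partner of the reassembly factor DMXL, at -0.17 ± 0.16. The median of the list was -0.12. Of 12 genes of the Ragulator and Rag docking system, which senses amino acids on the pump, 5 were positive and 7 negative with a median of -0.08. Flcn, a GTPase-activating protein for the Rag proteins that restrains MiT/TFE factors, was at 89.72 and 117.7 CPM in R213G and 151.9 and 130.4 CPM in WT, without overlap (-0.44 ± 0.16, unadjusted p = 0.0194 and adjusted p = 0.9996, edgeR). Leaving out R213G replicate 1 gave a log2 fold change of -0.26, and leaving out R213G replicate 2 gave -0.66. Lamtor5, a Ragulator subunit, stood at 0.35 ± 0.21.

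The MiT/TFE factors, which switch on lysosomal and pump genes, did not pass either. Tfeb was at 93.55 and 83.98 CPM in R213G and 71.57 and 76.41 CPM in WT, both R213G libraries being above both WT libraries (0.26 ± 0.14, unadjusted p = 0.0876 and adjusted p = 0.9996, edgeR). Tfec, the form most tied to macrophages, was at 116.4 and 85.73 CPM in R213G and 77.48 and 90.08 CPM in WT (0.27 ± 0.17, but 0.03 with R213G replicate 1 left out and 0.47 with R213G replicate 2 left out). Tfe3 stood at -0.09 ± 0.13 and Mitf at -0.10 ± 0.16, so the 4 genes split evenly in sign. In R213G replicate 1, where the pump genes were low, Tfeb and Tfec were at their highest and Tfe3 and Mitf at their lowest.

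Lysosomal ion channels and exchangers, which set the charge balance that lets the pump run, had 0 of 9 genes called and a median of -0.01, with the calcium channel Mcoln1 at 0.18 ± 0.15 and the potassium and proton channel Tmem175 at -0.12 ± 0.24. Of these, 8 of 9 were higher in R213G replicate 2 than in R213G replicate 1, as were 34 of the 52 tested genes over all pathway lists. Osteoclast and cell fusion genes were read because Atp6v0d2 is known from osteoclast fusion in mice. Of their 7 tested genes 0 were called. Dcstamp, a fusion receptor, was at 27.01 and 15.38 CPM in R213G and 13.86 and 11.07 CPM in WT (0.77 ± 0.32, unadjusted p = 0.0415 and adjusted p = 0.9996, edgeR), and was highest in the library in which Atp6v0d2 was lowest. Its log2 fold change came to 0.31 on leaving out R213G replicate 1 and to 1.11 on leaving out R213G replicate 2. Acp5, the tartrate-resistant acid phosphatase, was at 413.7 and 511.7 CPM in R213G and 517.4 and 519.9 CPM in WT (-0.16 ± 0.13). Over all pathway lists, 3 of 52 tested genes had an unadjusted edgeR p under 0.05 (Atp6v1g2, Flcn and Dcstamp), beside 2.22% of all genes tested. They were named because their p was among the smallest of their list.

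Promoter sequence was read for the core letters of the motif that MiT/TFE factors bind in lysosomal genes. RefSeq windows of 300 bases (GRCm38.p6) were held for 7 of the 10 genes. The core letters CACGTG, which read the same on both strands, were found in the windows of 3 of the 7 genes, Atp6v0b, Atp6v0d1 and Atp6v1a, or 3 of the 9 windows these 7 genes hold, and in 7.15% of all 32851 promoter windows. The median GC content of the pump gene windows was 60.3%, against 52.7% of all windows, and the core holds a CpG. The longer TCACGTGA, which contains the core, was found in Atp6v0d1 and Atp6v1a and in 0.974% of all windows. With a further G before it and C after it, it was found in 0 of the 7 genes and in 0.326% of all windows. A match of letters is a description and not evidence of binding. The stretches with the core are shown 5′ to 3′ on the gene's own strand (minus for all 3), with the core in capitals. From the RefSeq transcription start, the core starts at -36 and -18 in Atp6v0b, at -3 in Atp6v0d1 and at -131 in Atp6v1a. The gene spans given above are from GENCODE, and by its span of Atp6v1a (44085402 to 44139705) the Atp6v1a stretch lies inside the gene.
Atp6v0b, chr4:117887330-117887425: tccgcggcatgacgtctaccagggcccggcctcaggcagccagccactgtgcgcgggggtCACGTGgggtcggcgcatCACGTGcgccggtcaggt
Atp6v0d1, chr8:105566050-105566079: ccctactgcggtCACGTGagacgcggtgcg
Atp6v1a, chr16:44139325-44139450: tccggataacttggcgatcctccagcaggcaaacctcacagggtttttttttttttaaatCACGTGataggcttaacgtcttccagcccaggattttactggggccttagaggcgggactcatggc
Between the R213G libraries these 3 genes differed by 1.18-fold for Atp6v0b, 1.01-fold for Atp6v0d1 and 1.26-fold for Atp6v1a. The other 4 genes with a window and no core differed by 1.06-fold (Atp6ap1) to 1.20-fold (Atp6v0a1), so among genes with a window the groups overlapped. No window was held for Atp6v0d2 (1.51-fold), Atp6v1h (1.37-fold) and Atp6v1b2 (1.10-fold). The comparison thus leaves out the genes with the 2 widest gaps, and a link between the letters and the gap was not tested.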

How the data were processed

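For 4 libraries the deposited values are raw, whole-number counts by gene symbol. GRCm38, STAR 2.5.1b, Subread 1.4.4 and featureCounts are named, per the submitters' processing notes. The annotation, the strand setting, the treatment of multi-mapped reads and the read length were each not given in the sources used here. Counts were tested with edgeR 4.0.16 (quasi-likelihood, TMM, filterByExpr by genotype, robust, the newer form with legacy off), R213G minus WT, with Benjamini-Hochberg adjustment over 13575 genes and a threshold of 0.05; R was 4.3.3. The SE is the log2 fold change divided by the square root of F, and its 95% interval uses the fit's degrees of freedom. CPM uses the library size after the filter times the TMM factor. TPM uses exon lengths of GENCODE vM21 (GRCm38), found for 15858 symbols (96.9%). Shares were tested with an exact two-sided permutation test. The functions were tested on simulated data. Alternatives were 3 other scalings, 2 other filters, DESeq2 1.42.0, the legacy form, limma voom (limma 3.58.1), a replicate block and each library left out.

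The pump genes, the gene lists and the rule for named genes were chosen with earlier results of these data known. The rule took all 10 genes, the 2 genes of smallest p of each pathway list, all genes of an isoform slot, the MiT/TFE factors, Sod3, the highest and lowest gene of each marker list and the 5 genes nearest to Atp6v0d2. Gm42418, Clrn2, Lars2, Atp6v0c-ps1, Xcr1, Clec9a, Epcam, Sftpb, Scgb1a1, Foxj1, Itgam, Csf3r, S100a8, Marco and Plet1 were named after their values were seen. Some listed genes are not in the table and are not analysed here, and 1 marker list is not reported here.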

Additional observations from a re-analysis of the deposited data

How the results depend on the processing

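With 2 libraries of each genotype, 1 library could set a value; where leaving one out left a genotype with 1 library, it was assumed to vary like the other genotype. No pump gene and none of the other pathway genes was called under any of the 13 alternatives. The number of genes called in the whole table was 1 with DESeq2 (Clrn2) and 0 to 2 with each library left out, the 2 being Gm42418 and Lars2 without R213G replicate 2; at an unadjusted p under 0.05 it was 150 with a mean of at least 5 CPM, 201 with limma voom, 1960 without R213G replicate 2 and 71 without WT replicate 1. Apart from leaving out a library, 3 of 90 pump gene fold changes reversed: Atp6v0d1 to 0.01 with total counts only, and Atp6v0d2 to -0.02 with limma voom and to -0.01 with the replicate block. Leaving out each library in turn, the log2 fold change ranged from -0.24 to 0.03 for Atp6v0a1, -0.21 to 0.03 for Atp6v0b, -0.04 to 0.02 for Atp6v0d1, -0.31 to 0.28 for Atp6v0d2, -0.23 to 0.11 for Atp6v1a, -0.02 to 0.11 for Atp6v1b2, -0.21 to 0.25 for Atp6v1h and -0.16 to 0.08 for Atp6ap2; Atp6v0c and Atp6ap1 kept their sign. Among other genes it ranged from -0.02 to 0.05 for Atp6v0a2, -0.20 to 0.06 for Ccdc115, -0.20 to 0.01 for Tfe3, -0.26 to 0.04 for Mitf and -0.46 to 0.14 for Tmem175; without a change of sign it ranged from 0.03 to 0.47 for Tfec, 0.0027 to 0.33 for Mcoln1, 0.05 to 0.44 for Vma21, 0.17 to 0.51 for Lamtor5, -0.32 to -0.01 for Wdr7 and -0.33 to -0.02 for Acp5. The median over the pump genes ranged from -0.21 to 0.08, the lowest without R213G replicate 2 and the highest without R213G replicate 1. The difference in the share of Atp6v0d2 (R213G minus WT, -0.0889 points) ranged from -5.05 to 4.87 points, and the cause was not tested. With the longest transcript the mean TPM was 263 for Atp6v0a1, 622 for Atp6v0b, 461 for Atp6v0d1, 218 for Atp6v1a, 487 for Atp6v1b2, 47.2 for Atp6v1h, 715 for Atp6ap1 and 218 for Atp6ap2, since the lengths differ. Neighbours in the order whose libraries were fully apart numbered 6 with the longest transcript and 3 to 6 with a library left out. The labels number the replicates 1 and 2 in both genotypes without saying that a number marks a shared day or litter, and the deviations of same-numbered libraries correlated at 0.0926 over genes. The replicate block gave log2 fold changes of -0.10 for Atp6v0a1, -0.11 for Atp6v0c and 0.05 for Atp6ap1, called 0 genes and changed no other sign.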
